A study of Triticum aestivum with 8 samples.

Results

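Late grain filling in bread wheat was followed through the accessible chromatin regions (ACRs) listed for whole seed at 15 and at 20 days after pollination (DAP15 and DAP20). An ACR of either list and any it touched by 1 bp or more were joined into a locus. A locus found in the DAP15 list alone is called lost, one in the DAP20 list alone gained, and one in both lists kept. Without chromosome 4B there were 137068 loci, made from 102128 DAP15 ACRs and 100068 DAP20 ACRs, out of 420451 ACRs listed for all stages of the study. Lost loci numbered 40610 (29.6% of all loci), gained loci 36150 (26.4%) and kept loci 60308 (44.0%). Chromosome 4B was left out because its DAP15 list stood apart, with 3450 ACRs against 4213 to 4339 in the other lists.

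The plants were of the cultivar AK58 (AiKang58), grown in a greenhouse after vernalization, with no further treatment. The labels count the days from fertilization. Each stage had 2 sample records but 1 list, so that no replicate error can be given for any difference, and intervals given here are Wilson 95% intervals for counting error only. The 5 and 9 day stages of the same study (DAP5 and DAP9) were endosperm with the embryo removed, and are used below only as a readout that did not enter the classes.

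ATAC-seq marks open chromatin because the Tn5 transposase inserts sequencing adapters where DNA is not wrapped in nucleosomes, and such regions often hold promoters and enhancers bound by transcription factors. Between DAP15 and DAP20 the wheat endosperm fills with starch and with the storage proteins glutenin and gliadin, while the embryo matures. Whole seed holds endosperm, embryo, aleurone and the maternal seed coats, so that fewer nuclei of a cell type and a less open region in each nucleus cannot be told apart. The lists held neither a signal nor a read number, so that a lost or gained locus is a change of call and not a measured change of accessibility. No gene was paired with a locus, since the genome build behind the coordinates was not stated, and the tissue label could not be checked against marker genes. For the same reason no sequence is shown.

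Of the loci with a DAP15 ACR, 40.2% were lost by DAP20 (39.9 to 40.5%), and of the loci with a DAP20 ACR, 37.5% were gained (37.2 to 37.8%). There were 1.12 lost loci for each gained locus, a ratio that depends on which ACRs are counted. It was 1.92 with ACRs of at least 350 bp, which leaves out the narrow ACRs of the DAP20 list. With ACRs on the common width steps (350 bp plus a multiple of 150 bp), which leaves out all others of any width, it was 2.74. Turnover took a smaller part of the open sequence, with 20.2 Mb of the 67.9 Mb at DAP15 in lost loci (29.8%) and 15.0 Mb of the 54.1 Mb at DAP20 in gained loci (27.8%). Kept loci held 47.7 Mb at DAP15 and 39.1 Mb at DAP20, so that sequence also left the lists within loci that stayed. The lost share exceeded the gained share on 19 of 20 chromosomes, and on 6B the numbers were nearly equal, with 1979 lost and 1981 gained loci. These shares depend on how a locus is defined: a reciprocal overlap of 50% left 29.2% of loci kept, and with only ACRs on the width steps the lost share was 61.9% and the gained share 37.2%. The restriction to steps removes 39.6% of the DAP20 list and 4.33% of the DAP15 list.

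Lost and gained ACRs were narrow. A DAP15 ACR in a lost locus was 498 bp wide on average (SD 236, median 350 bp, n = 40610 ACRs), against 775 bp in a kept locus (SD 570, median 650 bp, n = 61518 ACRs). A DAP20 ACR in a gained locus measured 416 bp (SD 164, median 350 bp, n = 36150 ACRs), against 612 bp in a kept locus (SD 373, median 500 bp, n = 63918 ACRs). Both differences had the same direction on 20 of 20 chromosomes. The chromosome means did not overlap, at 484 to 507 bp for lost and 730 to 816 bp for kept DAP15 ACRs, and at 405 to 427 bp for gained and 573 to 640 bp for kept DAP20 ACRs. An ACR of exactly 350 bp made up 53.4% of the lost and 28.9% of the kept DAP15 ACRs. Gained loci also held the ACRs below 350 bp that the DAP15 list lacked entirely, and these made up 31.9% of the gained DAP20 ACRs against 11.3% of the kept ones.

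The share of ACRs that were lost fell with each class of width. Of the DAP15 ACRs of 350 bp, 54.9% lay in lost loci (54.4 to 55.4%, n = 39461), and the share was 44.1% for wider ACRs up to 500 bp, 32.9% from there to 800 bp, 16.9% from there to 1400 bp and 6.14% above 1400 bp (5.55 to 6.78%, n = 5864). The DAP20 list showed the same order for gained loci. There 61.5% of ACRs under 350 bp were gained (60.8 to 62.2%, n = 18758), 45.3% of those of 350 bp, 29.8% of wider ones up to 500 bp, 21.2% of those up to 800 bp, 9.84% of those up to 1400 bp and 2.50% above 1400 bp (1.94 to 3.22%, n = 2317). Broad ACRs were therefore mostly shared by both lists. Part of this order follows from how loci are defined, as a broad ACR has more room to overlap another. DAP20 ACRs off the common width steps were gained in 41.0% of cases and those on the steps in 32.9%.

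**Figure D1:**
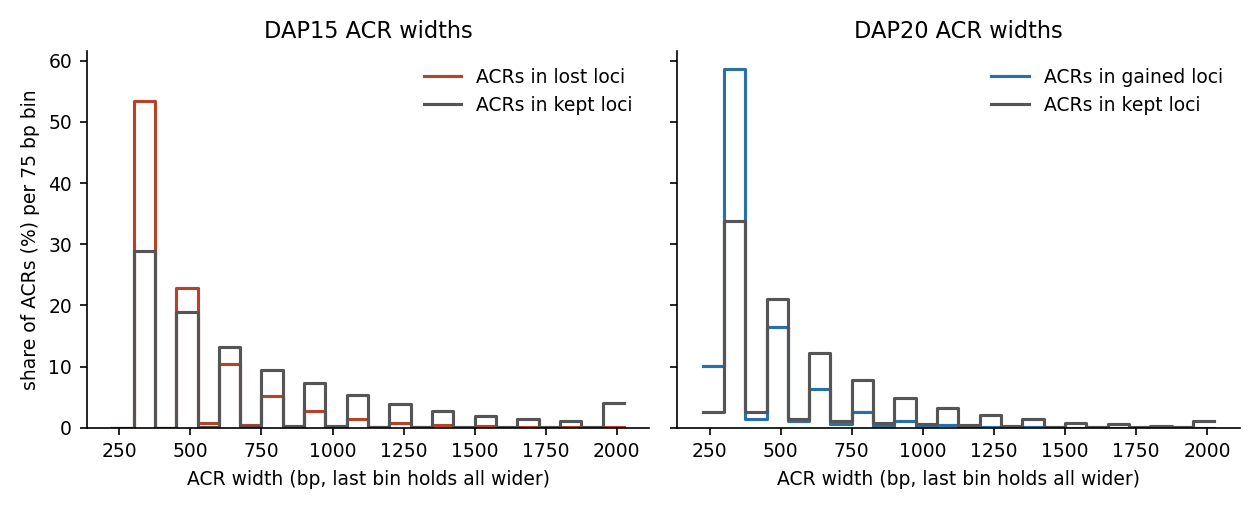
Widths of DAP15 ACRs in lost and kept loci (left) and of DAP20 ACRs in gained and kept loci (right), as the share of the ACRs of each class in bins of 75 bp, with all wider ACRs in the last bin. The peaks stand at steps of 150 bp, and the lost and gained classes pile up at 350 bp, where 53.4% of the lost and 36.9% of the gained ACRs lay.

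Some broad ACRs nevertheless disappeared or appeared whole. The widest lost locus in the A subgenome spanned 2750 bp (7A, 701804010 to 701806759), that in B also 2750 bp (1B, 532694248 to 532696997) and that in D 3650 bp (6D, 402349393 to 402353042). All of them overlapped an ACR at DAP5 and at DAP9, so that they were listed in endosperm and in DAP15 seed and missing at DAP20. The widest gained locus in A spanned 3371 bp (1A, 21083632 to 21087002), that in B 3821 bp (7B, 107938518 to 107942338) and that in D 3800 bp (1D, 492889807 to 492893606). The gained loci on 1A and 7B overlapped an ACR at DAP5 and none at DAP9, while the locus on 1D, at 99.5% of the chromosome length, was in no endosperm list. The lost locus on 1B lay only 250 bp from a kept locus, and that on 6D lay 209982 bp from the nearest one.

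Losses and gains fell in different places along the chromosomes. Wheat chromosomes carry most of their genes and most recombination towards the ends, around a large interior rich in transposable elements. The outer 20% at either end held 69.7% of the gained loci (69.2 to 70.2%) and 54.6% of the lost loci (54.1 to 55.0%), with kept loci between them at 62.1% (61.7 to 62.5%). Gained loci lay above kept loci, and lost loci below them, on 20 of 20 chromosomes. The median distance to the nearer chromosome end was 72.7 Mb for gained, 95 Mb for kept and 118 Mb for lost loci. Seen as turnover, the ends lost 37.2% of their DAP15 loci and the interior 44.7%, while 40.2% of DAP20 loci were gained at the ends and 32.4% in the interior. Both contrasts held on 20 of 20 chromosomes. At the ends 25196 gained loci stood against 22156 lost loci, a ratio of 1.14, and in the interior 10954 stood against 18454, a ratio of 0.594. The excess of gained loci at the ends was not present with ACRs of at least 350 bp, where 17349 gained loci stood against 25981 lost loci at the ends (0.668) and 7270 against 21188 in the interior (0.343). With ACRs on the width steps the ratios were 0.439 and 0.265, so that the ends had more gained loci per lost locus than the interior in each case. With ACRs of at least 350 bp the lost share was still lower at the ends (43.6% against 51.3%) and the gained share higher (34.0% against 26.6%).

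In bins of 5% of chromosome length, gained loci outnumbered lost loci in 5 of 20 bins, namely the outermost 10% at the start of the coordinates and the outermost 15% at their end. With ACRs of at least 350 bp, or with those on the width steps only, this was so in 0 of 20 bins. The last bin held 6113 gained and 4277 lost loci, a ratio of 1.43. The gained share fell from 42.4% in the first bin (41.5 to 43.3%) to its lowest value of 29.9% between 40 and 45% of the length (28.3 to 31.6%), and rose again to 42.6% in the last bin (41.8 to 43.4%). The lost share ran the other way, from 36.3% in the first bin up to 46.9% between 25 and 30%, and 48.7% between 60 and 65% (47.0 to 50.3%). In between it dipped to 39.9% in the bin from 40 to 45% (38.3 to 41.6%), where the gained share was also lowest, so that loci in the middle of the chromosomes were kept more often than those beside them. Centromeres were not placed, as no map of the build was used. Within the outermost 5 Mb the shares were 37.4% lost and 40.1% gained, close to those of the ends as a whole.

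**Figure D2:**
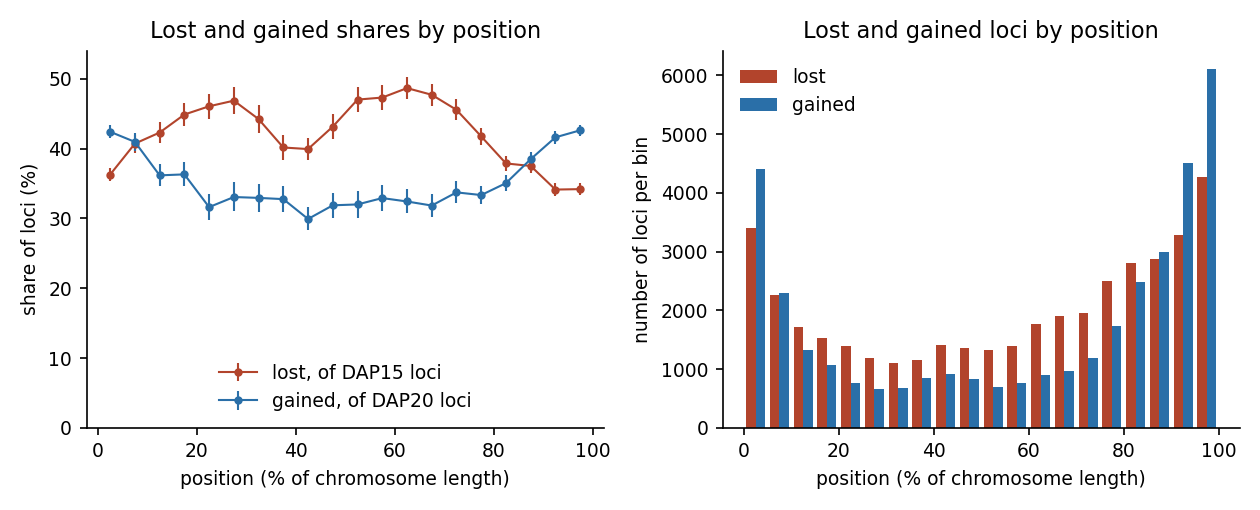
Lost share of DAP15 loci and gained share of DAP20 loci (left, points with Wilson 95% intervals) and numbers of lost and gained loci (right, bars), in 20 bins of relative position pooled over 20 chromosomes. The curves cross near both ends, and the numbers reach 6113 gained against 4277 lost loci in the last bin, while with ACRs of at least 350 bp gained loci outnumbered lost loci in 0 of 20 bins.

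The contrast between ends and interior was present within every class of width. Among DAP15 ACRs of 350 bp, 51.3% were lost at the ends (50.6 to 51.9%) and 60.1% in the interior (59.3 to 60.8%), and the interior was higher in each of the 5 width classes. Among DAP20 ACRs of 350 bp, 49.0% were gained at the ends (48.3 to 49.7%) and 39.1% in the interior (38.2 to 40.0%), and the ends were higher in each of the 6 width classes. Broad gained loci lay further towards the ends than narrow ones, with an end share of 68.1% under 350 bp, 67.7% at 350 bp, 71.6% up to 500 bp, 76.1% up to 800 bp and 78.2% up to 1400 bp. Above 1400 bp, 50 of 58 gained loci lay at the ends (86.2%, 75.1 to 92.8%). The DAP20 list as a whole also leaned further to the ends when broad, so that this was not particular to gained loci. Of all DAP20 ACRs of 350 bp, 18418 lay at the ends and 11019 in the interior, and above 1400 bp 1672 and 645. Lost loci showed no such order, their end share staying between 53.9% and 56.7% over the width classes. Gained ACRs on and off the width steps had nearly the same end share, 69.6% and 69.8%.

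On a finer scale, the shares were taken in windows of 10 Mb with at least 50 loci, of which there were 1043. The lost share ranged from 13.3% to 71.2% with a median of 41.1% (quartiles 35.7 and 47.2%), and the gained share from 11.6% to 61.0% with a median of 35.5% (quartiles 29.8 and 40.9%). The highest lost share fell on chromosome 3B between 410 and 420 Mb, with 37 lost, 16 gained and 15 kept loci (71.2%, 57.7 to 81.7%). The highest gained share fell on 6B between 110 and 120 Mb, with 25 gained, 11 lost and 16 kept loci (61.0%, 45.7 to 74.3%). Both extremes rest on few loci, as their intervals show.

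Bread wheat unites the A, B and D subgenomes of 3 ancestral grasses, and corresponding chromosomes form homoeologous groups. The mean lost and gained shares of the subgenomes lay close together. The lost share was 39.7 ± 0.989% in A (mean ± SD, n = 7 chromosomes), 40.5 ± 1.19% in B (n = 6 chromosomes) and 40.6 ± 0.716% in D (n = 7 chromosomes). The gained share was 36.9 ± 0.877% in A (n = 7 chromosomes), 37.2 ± 0.710% in B (n = 6 chromosomes) and 38.0 ± 1.70% in D (n = 7 chromosomes). Pairing chromosomes within homoeologous groups, the mean difference in lost share between A and D (A minus D) was -0.93 percentage points over 7 groups, A being lower in 6 of them (the exception being group 6), with an exact two-sided sign-flip permutation p of 0.0469. For the gained share the mean of A minus D was -1.16 points over 7 groups, A being lower in 6 of them (the exception being group 4), with the same exact permutation p. The mean of B minus D in gained share was -1.33 points over 6 groups, B being lower in 5 of them, with an exact permutation p of 0.0625. After Benjamini-Hochberg adjustment over the 6 comparisons none passed the threshold of 0.05, these 3 having an adjusted exact p of 0.125 each and the other 3 between 0.469 and 0.969. The test can reach no p below 0.0312 with 6 groups or 0.0156 with 7 groups, and chromosomes are not biological replicates. At these floors no comparison could pass the adjusted threshold on its own, so that the outcome does not show equal rates.

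Per length, however, the D subgenome carried more turnover, as it carried more ACRs of every class. It had 3.74 ± 0.193 lost and 3.36 ± 0.326 gained loci per Mb, against 2.76 ± 0.166 and 2.46 ± 0.265 in A (mean ± SD, n = 7 chromosomes each) and 2.71 ± 0.302 and 2.37 ± 0.351 in B (n = 6 chromosomes). Lost loci of the A subgenome lay at the chromosome ends in 58.3 ± 3.07% of cases, those of B in 51.2 ± 5.31% and those of D in 53.8 ± 4.66%. For gained loci these shares were 71.0 ± 2.89%, 67.6 ± 4.79% and 70.1 ± 3.76%, so that the subgenomes overlapped within their spread over chromosomes. Chromosome 1B had the lowest lost end share of all chromosomes (45.2%) and the fewest lost and gained loci per Mb (2.18 and 1.75). Its first 10 Mb window with at least 50 loci began at 240 Mb, so that its coordinate start carried few loci. The B means include 1B and were not recomputed without it. No test was made of these levels.

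Among single chromosomes, 7D turned over most, with the highest lost share (41.9%), the highest gained share (39.8%) and the lowest kept share (42.0% of its loci). Chromosome 2A kept the most, at 45.1%. The lowest lost share was on 6B (38.3%) and the lowest gained share on 4D (34.8%), which also had the fewest gained loci per lost locus, 0.762. The spread between chromosomes was small, with an SD of 1.02 points for the lost and 1.24 points for the gained share (n = 20 chromosomes). The lost share ranged from 38.3 to 41.9% between chromosomes and from 34.1 to 48.7% between bins along them.

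**Figure D3:**
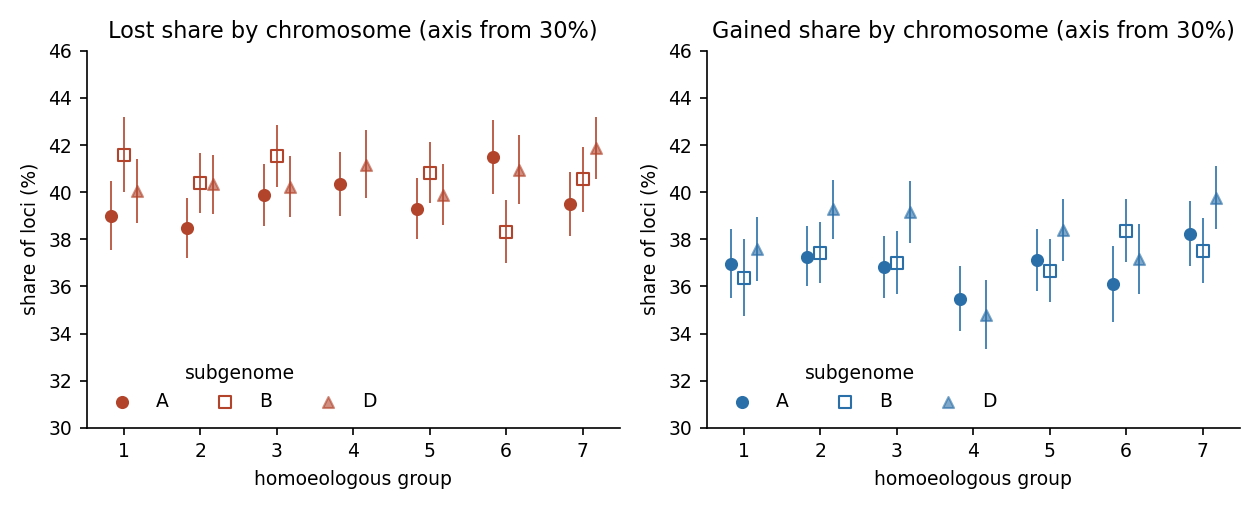
Lost share of DAP15 loci (left) and gained share of DAP20 loci (right) for each of 20 chromosomes, by homoeologous group and subgenome, with Wilson 95% intervals as lines and the vertical axis starting at 30%. Chromosome 4B is left out. The D chromosomes (triangles) had a higher gained share than their A partners (circles) in 6 of 7 groups, while many intervals overlap.

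Lost loci sat closer to kept loci than gained loci did. The distance from edge to edge to the nearest kept locus had a median of 8.41 kb for lost loci (quartiles 1.83 and 81.7 kb) and 15.8 kb for gained loci (3.20 and 86.1 kb), against 8.80 kb from a kept locus to the next (2.29 and 71.4 kb). Within 5 kb of a kept locus lay 41.1% of the lost loci (40.6 to 41.6%) and 31.8% of the gained loci (31.3 to 32.3%), and the order was the same on 20 of 20 chromosomes. Within 1 kb these shares were 18.0% and 12.7%. Far from kept loci the classes met again, with 22.5% of lost and 22.8% of gained loci more than 100 kb away. The difference was present in both compartments, at 47.0% of lost and 34.2% of gained loci within 5 kb at the ends, and 34.0% and 26.4% in the interior. Gained loci thus lay closer to the chromosome ends but further from kept loci than lost loci did.

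Lost loci near and far from kept loci differed in place. Those within 5 kb were 517 bp wide on average and lay at the ends in 62.4% of cases, while those over 100 kb away were 481 bp wide and lay there in 33.8%. For gained loci the widths were 426 and 396 bp and the end shares 74.8% and 50.7%. Lost loci far from any kept locus were thus mostly interior, while gained loci of that kind were divided nearly evenly between ends and interior. Over all distances the end shares were 54.6% of lost and 69.7% of gained loci. The far loci of both classes thus lay less often at the ends than their class as a whole. Kept loci were themselves spaced more widely in the interior, with a median of 20.1 kb to the next kept locus against 6.45 kb at the ends. That spacing enters these values, and its part was not tested.

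Neighbouring loci tended to change in the same way. The locus after a lost one was lost in 32.8% of cases (32.3 to 33.2%), against 29.6% of all loci, and the locus after a gained one was gained in 32.3% (31.8 to 32.8%), against 26.4% of all loci. Both held on 20 of 20 chromosomes. A gained locus was followed by a lost one in 25.4% of cases. The trend along the chromosome enters these values, and its part was not tested. A lost locus stood between loci of other classes in 45.8% of cases (18615 of 40610) and a gained locus in 46.9% (16962 of 36150), and the others lay in runs of at least 2. The longest run of lost loci held 11 in 249 kb on 3B (347420726 to 347669396), of which 4 overlapped an ACR at DAP5 and 1 at DAP9. The longest run of gained loci held 10 in 913 kb near the end of 3D (562918691 to 563832102), of which 1 overlapped an ACR at DAP9 and 0 at DAP5. Kept loci formed runs of up to 21.

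Kept loci became narrower more often than wider. Of the kept loci, 56048 (92.9%) held 1 ACR of each list and allow a direct comparison. Their mean width fell from 715 to 594 bp, a mean change of -122 bp (SD 355 bp over loci), and the median change was -28 bp (quartiles -300 and 0 bp). The DAP20 ACR was narrower in 55.7% of them (55.3 to 56.1%), wider in 23.7% (23.4 to 24.1%) and of the same width in 20.6% (20.3 to 20.9%). The DAP20 ACR shrank to at most 50% of its DAP15 width in 11.1% and grew by a factor of 2 or more in 2.75%. Narrowing outnumbered widening on 20 of 20 chromosomes, with the mean change between -94.0 bp on 7B and -147 bp on 4D. The median rests on small shifts and follows the width steps: it was -4 bp with ACRs of at least 350 bp and 0 bp with ACRs on the steps only, where 48.3% narrowed and 18.8% widened.

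Loci that widened were narrower at DAP15 than loci that narrowed, and wider at DAP20. On average the widened loci grew from 541 to 787 bp, while those that narrowed went from 873 to 549 bp. Sorting loci by the sign of the change fixes part of this contrast, because both widths enter the change. Binned by their DAP15 width, loci changed by 84.7 bp on average at 350 bp, by -1.78 bp up to 500 bp, by -125 bp up to 800 bp, by -347 bp up to 1400 bp and by -769 bp above 1400 bp. The choice of the list used for binning fixes part of this order, because the ACRs of a wide class are picked for being wide in that list. Binned by the DAP20 width instead, the mean change was -177 bp under 350 bp, -203 bp at 350 bp and -129 bp up to 500 bp. It was -82.4 bp up to 800 bp, -2.80 bp up to 1400 bp and 21.2 bp above 1400 bp. The broadest DAP20 loci had thus been about as broad at DAP15, at 1830 against 1852 bp, whereas the broadest DAP15 loci fell from 1947 to 1179 bp.

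**Figure D4:**
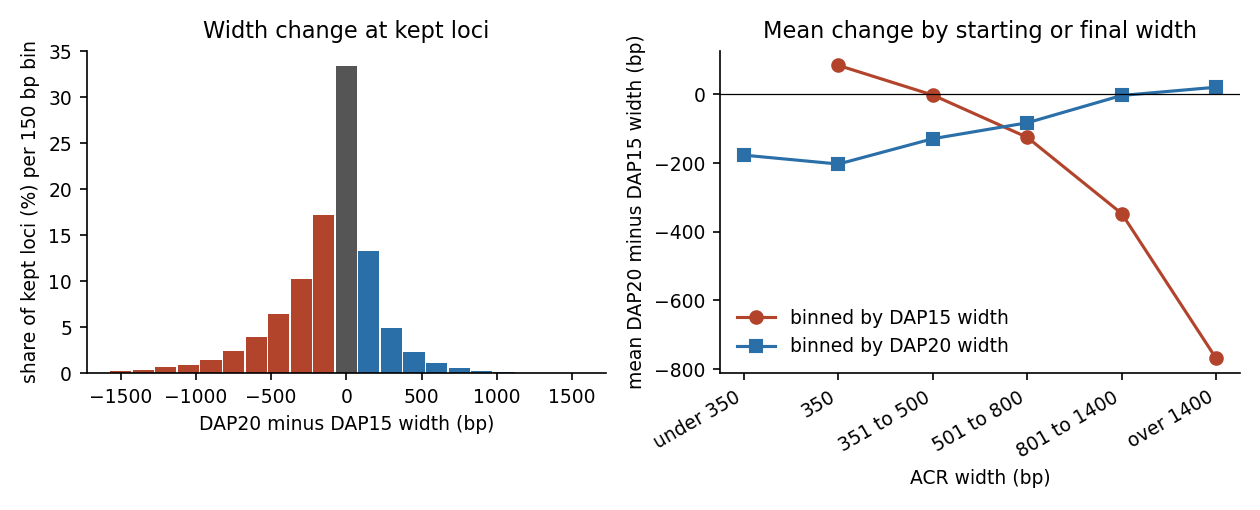
Change in ACR width from DAP15 to DAP20 at 56048 kept loci with 1 ACR of each list, as the share of loci in bins of 150 bp (left; 0.475% of loci lay below and 0.0321% above the range drawn), and mean change by DAP15 or by DAP20 width class (right). Narrowing (bars left of 0) outweighs widening, and the mean change reaches -769 bp for DAP15 ACRs above 1400 bp.

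Width change followed the same axis as turnover. Kept loci in the interior changed by -149 bp on average, from 714 to 565 bp, and those at the ends by -105 bp, from 716 to 611 bp, with the larger narrowing in the interior on 20 of 20 chromosomes. The share that widened was 26.3% at the ends and 19.4% in the interior. Loci that widened by at least 300 bp lay at the ends in 73.3% of cases, and those that narrowed by as much in 59.3%. By bins of 5%, the mean change was smallest in the last bin, at -75.8 bp, and largest between 70 and 75% of the length, at -171 bp. The subgenomes differed little, with mean changes of -118 bp in A, -121 bp in B and -126 bp in D.

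The edges did not move alike. The edge at the lower coordinate moved inward in 63.2% of loci and that at the higher coordinate in 52.9%, by 70.1 and 51.7 bp on average, and the former moved further on 20 of 20 chromosomes. Where both ACRs had widths on the common steps, the mean inward shifts were 67.5 and 63.1 bp. Where the DAP20 ACR was off the steps, they were 62.5 and 19.5 bp. In 56.1% of loci the ACRs were staggered, in 29.6% both edges moved inward, and in 12.5% both moved outward. The midpoint shifted by a median of 79 bp.

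The largest changes were of several kilobases. The most narrowed locus in A went from 5750 to 1990 bp (2A, 657808735 to 657814484), that in B from 5000 to 1250 bp (2B, 215196897 to 215201896) and that in D from 4113 to 596 bp (5D, 3568332 to 3572444). The most widened locus in A went from 650 to 2894 bp (2A, 1504697 to 1507590), that in B from 1100 to 3673 bp (2B, 58790850 to 58794629) and that in D from 350 to 2581 bp (5D, 560337204 to 560339784). The distance to the nearer chromosome end was 1.51, 58.8 and 5.73 Mb for the most widened loci of A, B and D, and 122, 215 and 3.57 Mb for the most narrowed ones.

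Single DAP15 ACRs faced several DAP20 ACRs more often than the reverse. In 3070 kept loci (5.09%) a single DAP15 ACR faced several DAP20 ACRs, and in 992 (1.64%) several DAP15 ACRs faced a single DAP20 ACR, a ratio of 3.09, with more splits than joins on 20 of 20 chromosomes. The DAP20 list held narrower ACRs (mean 541 bp against 665 bp), 18.7% of them under 350 bp against 0% at DAP15. The ratio was not recomputed without these narrow ACRs, so that their part in it was not tested. Split ACRs had a mean width of 1900 bp, of which the DAP20 ACRs covered 69.5%. Joined loci covered 1291 bp before and 1355 bp after. The widest kept locus was also the one split most, where a DAP15 ACR of 11150 bp on 3A (632541938 to 632553087) gave way to 6 DAP20 ACRs that together covered 5100 bp, as many as at 2 other DAP15 ACRs. Conversely, at most 3 DAP15 ACRs were joined by 1 DAP20 ACR, which occurred 15 times, the first on 1A (549061179 to 549064378, 3200 bp).

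The endosperm lists, which did not enter the classes, held kept loci most often and gained loci least. An ACR was present at DAP9 in 80.5% of kept (80.2 to 80.9%), 43.3% of lost (42.8 to 43.7%) and 27.4% of gained loci (26.9 to 27.9%). At DAP5 these shares were 76.3%, 39.3% and 29.6%. Lost loci exceeded gained loci at both stages on 20 of 20 chromosomes. Both stages together held 30.9% of lost and 18.3% of gained loci, and neither held 48.3% of lost and 61.3% of gained loci. The lost class was therefore split between loci listed in endosperm and loci seen at DAP15 alone, and most gained loci were in neither endosperm list. Stage and tissue cannot be told apart in these shares, as the endosperm samples lacked the embryo that whole seed holds. With a reciprocal overlap of 50% to define the classes, the DAP9 shares rose to 53.9% of lost and 45.6% of gained loci, which narrows the gap.

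At equal width the order was the same. Of DAP15 ACRs of 350 bp, DAP9 held 34.6% in lost (34.0 to 35.2%) and 64.0% in kept loci (63.2 to 64.7%). Of DAP20 ACRs of 350 bp, it held 27.7% in gained (27.0 to 28.5%) and 73.1% in kept loci (72.4 to 73.8%). Broad lost loci were usually listed in endosperm as well. DAP9 held 83.9% of those above 1400 bp (302 of 360) and 70.3% of those up to 1400 bp in the class below. Broad gained loci were less often so, at 34.5% for DAP9 above 1400 bp (20 of 58, 23.6 to 47.3%) and 41.0% in the class below. The contrast was smaller at DAP5, which held 51.7% of gained loci above 1400 bp (30 of 58) and 49.5% in the class below. For lost loci DAP5 held 72.5% and 64.0%. Gained loci absent from both endosperm lists lay at the ends in 71.3% of cases, those present at DAP5 only in 72.6% and those present at DAP9 in 65.0%.

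Lost loci were held more often at DAP9 than at DAP5, on 19 of 20 chromosomes (the exception being 6B), and gained loci more often at DAP5 than at DAP9, on 17 of 20 (the exceptions being 1A, 2D and 6A). Kept loci had the same order as lost loci, with 80.5% at DAP9 and 76.3% at DAP5. Without chromosome 4B the DAP5 list was the larger, with 104538 ACRs against 97407 at DAP9. The order of lost loci held with ACRs on the width steps only (53.9% against 41.0%). That of gained loci turned around, with 34.2% at DAP9 and 30.5% at DAP5. That setting also thins the endosperm lists, DAP5 more than DAP9, which by itself lowers presence at DAP5. With ACRs of at least 350 bp both orders held. Lost loci were then at 45.5% for DAP9 and 39.5% for DAP5, and gained loci at 30.6% and 32.4%. This minimum also removes 4.56% of the DAP5 list and 0.394% of the DAP9 list. ACRs off the steps made up 18.2% of the DAP5 list and 39.6% of the DAP20 list, against 1.93% at DAP9 and 4.33% at DAP15.

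**Figure D5:**
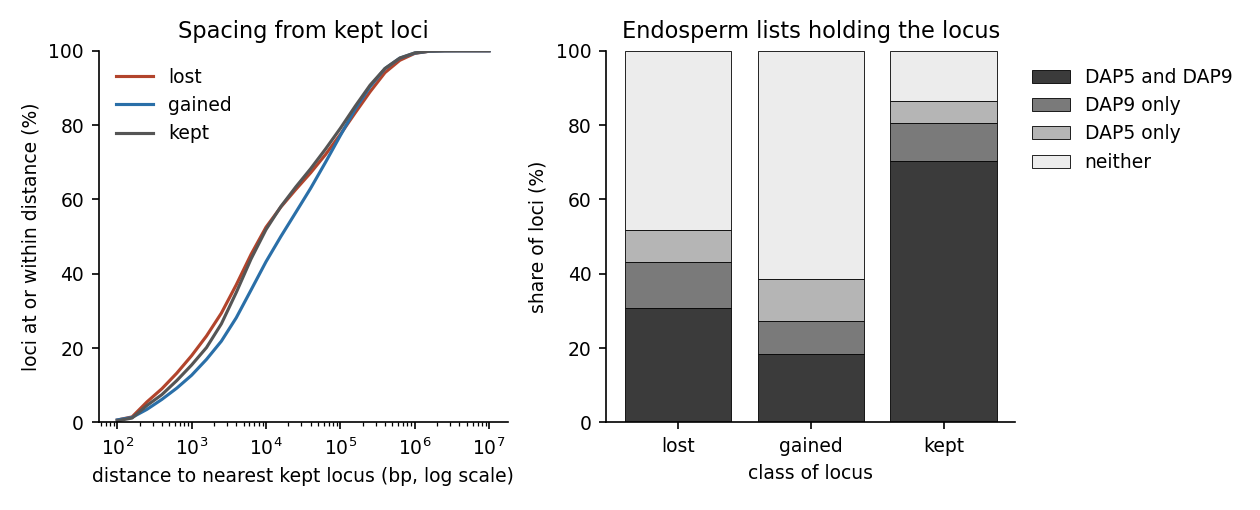
Share of lost, gained and kept loci that lie at or within a distance of the nearest other kept locus (left, logarithmic axis) and the endosperm lists that hold an ACR in them (right, stacked shares of loci). Gained loci lag behind at short distances, with 31.8% within 5 kb against 41.1% of lost loci, and 61.3% of them were in neither endosperm list.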

How the data were processed

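The study made ATAC-seq of nuclei from flash-frozen grain, with 2 records for each of 4 stages. According to its methods, the authors trimmed the reads (fastp; the submitters' processing notes name Trimmomatic 0.36), aligned them with Bowtie2 and removed duplicates with Picard. Peaks were called with MACS2, cut into bins, and bins above a Tn5 density cutoff were merged and cleared of blacklisted and organelle-like peaks. The cutoff, the genome build and any pooling of replicates are not given in the sources used here. The deposited values are start and end coordinates in bp, without signal, so that depth is unknown.

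Groups came from the labels. The lists of DAP15 and DAP20 were merged into loci in Python 3.11.15 (numpy 2.4.6, pandas 2.3.3, scipy 1.17.1, matplotlib 3.10.9). Loci, classes and permutation tests were first checked against simulated lists with known answers. Relative position took the highest ACR end of each chromosome over all lists as its length, and ends were the outer 20% on either side. Subgenomes were compared by exact sign-flip permutation tests over homoeologous groups with Benjamini-Hochberg adjustment over 6 tests. Loci named were the widest lost and gained of each subgenome, the widest kept, the most narrowed and widened, the most split and joined, the longest runs, and extreme chromosomes and windows. The loci, rules and tests were chosen with earlier results of these data known.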

Additional observations from a re-analysis of the deposited data

How the results depend on the processing

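With 1 list per stage, leaving out a replicate was not possible and no difference has a replicate error. No paired analysis was possible because replicates had no separate lists. Presence calls depend on the cutoff and depth of each list, which are unknown, and the DAP20 list holds many ACRs off the common width steps. Widths follow the bins of the peak caller.

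Kept, lost and gained shares were 29.2, 55.3 and 54.3% with a reciprocal overlap of 50%, 37.7, 45.8 and 44.6% with every ACR set to 350 bp at its midpoint, 42.8, 46.7 and 31.4% with a minimum width of 350 bp, and 48.2, 35.6 and 34.3% with merging within 500 bp. With only ACRs on the width steps the kept share was 31.1% and the lost share 61.9%. With chromosome 4B the kept share was 43.4% and the gained share 38.4%. Stricter overlap lowers and wider merging raises the kept share by construction. Of the DAP15 and DAP20 lists, a width minimum removes ACRs from that of DAP20 alone. For the rest the cause was not tested. Ratios, bins and shares at ends and in the interior were recomputed after seeing the data. Gained loci per lost locus at ends and in the interior were 0.668 and 0.343 with the minimum, 0.439 and 0.265 on the steps, 1.14 and 0.734 with reciprocal overlap and 1.24 and 0.611 with merging within 500 bp, the excess of gained loci at the ends being absent with the first pair of settings and present with the others.

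The end shares of lost and gained loci were 32.6 and 47.9% when ends took 10% on either side, 71.9 and 81.8% when they took 30%, 56.6 and 66.9% with reciprocal overlap and 55.1 and 70.5% with a minimum of 350 bp, gained loci being higher each time. With 4B the end share of lost loci was 55.1%.

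At kept loci the median width change was -4 bp with a minimum of 350 bp and 0 bp on the steps only. The narrowed share was 50.4% with that minimum, 48.3% on the steps and 55.1% with merging within 500 bp. The widened share, recomputed after seeing the data, was 26.6% with the minimum and 18.8% on the steps, below the narrowed share in each case.

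Lost and gained loci lay near a kept locus in 26.2 and 19.3% of cases at 2 kb, 60.4 and 53.4% at 20 kb, and 37.2 and 30.6% at 5 kb with a minimum of 350 bp. A DAP9 ACR was present in 53.9 and 45.6% of lost and gained loci with reciprocal overlap, 45.5 and 30.6% with the minimum, and 53.9 and 34.2% on the steps. For DAP5, tried after seeing the data, the shares were 39.5 and 32.4% with the minimum and 41.0 and 30.5% on the steps.

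None of the 20 recalculated subgenome comparisons passed the threshold, which none could pass on its own after adjustment. The lost share of A against D turned to 0.0914 points on the steps (adjusted exact permutation p 0.828, between 0.0625 and 0.828 over its alternatives). That of B against D turned to 0.00181 points with the minimum and 0.774 points on the steps (adjusted exact permutation p 1 and 0.188, between 0.188 and 1 over its alternatives).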
